A study of Mus musculus with 12 samples.

Results

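The tumour necrosis factor (TNF) superfamily comprises ligands that are made as membrane proteins and act as trimers, and receptors with cysteine-rich extracellular domains. The genes were taken from the gene table by name, as every Tnfsf or Tnfrsf symbol and Tnf, Lta, Ltb, Ltbr, Fas, Fasl, Cd40, Cd40lg, Cd27, Cd70, Eda, Edar and Ngfr. This gave 45 of the 55679 genes, of which 18 encode ligands and 26 encode receptors. The remaining gene, Tnfsf13os, is a noncoding RNA transcribed antisense to Tnfsf13 and Tnfsf12, and entered through its symbol. The authors marked 23 of the 45 as detected. Relt and Eda2r, receptors of the same family with other symbols, were kept with the signalling genes.

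The mice were adult males of the 129S6/SvEvTac background and either wild type for Adam19 (WT) or homozygous for an Adam19-tdTomato allele (KO). That allele is present in all cells and has an in-frame tdTomato construct with a hygromycin resistance cassette in place of internal coding exons, and its first exons are still transcribed. Whole lung and whole heart of 3 WT and 3 KO mice gave 12 libraries, with each mouse giving 1 of each under the same replicate number. The prefixes of the mouse identifiers, which may mark a litter or cage, differ for WT and KO, and their part and that of genotype cannot be told apart.

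Many members are cut from the cell surface by ADAM proteases. ADAM17 is the main protease that releases soluble TNF, and ADAM19 is a related metalloprotease best known for its part in heart development. Death domain receptors such as TNFR1 (Tnfrsf1a) and Fas can signal to caspases as well as to NF-kB. Other receptors bind TRAF adaptors directly, and the decoy receptors bind ligand without a full signalling tail. In blood and tissue, many of the remaining ligands and receptors act between lymphocytes and antigen-presenting cells. RNA levels do not report shedding, which occurs on the protein.

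The targeted gene was low in every KO library. Adam19 values, on the deposited log2 scale, were 9.14, 9.41 and 9.12 in WT lung and 4.45, 3.21 and 3.50 in KO lung. In heart they were 9.17, 9.25 and 10.27 in WT and 6.67, 6.01 and 6.56 in KO. The groups did not overlap in either tissue, and Adam19 fell by 5.51 in lung (SE 0.33, limma adjusted p = 0.000186) and by 3.15 in heart (SE 0.31, adjusted p = 0.00558). The tissue labels were borne out by markers. The summed level of 5 lung epithelial markers was 18.83 to 19.12 in lung and 6.38 to 10.7 in heart, and that of 6 heart muscle markers was 13.33 to 14.62 in lung and 20.78 to 21.06 in heart. Summed estimated counts were 17674788 to 28043361 in lung, 31784742 to 35862932 in 4 heart libraries, and 20381284 and 18392292 in heart WT replicates 2 and 3, which were shallow among the hearts. The lowest total was that of lung KO replicate 3. One gene, Rn7s1, took 34.0% and 29.9% of the summed gene abundance in lung WT replicates 1 and 2. Its share was 20.3% in lung KO replicate 3 and 2.10% in lung WT replicate 3, and 2.70% to 11.8% in the hearts. The totals therefore do not give the depth left for other genes.

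Promoter windows were available for 34 of the members in RefSeq's set (build GRCm38.p6), each of 300 bases around a start. The windows of 3 genes are shown because the lung and heart results turn on them. Tnfsf10 was the most abundant ligand of the lung, Tnfsf15 had the largest lung excess, and Tnfrsf12a was the one member whose heart libraries all lay above the lung libraries. They are printed 5′ to 3′ on the gene's strand, at chr3:27316827-27317126 (+) for Tnfsf10, chr4:63745010-63745309 (−) for Tnfsf15 and chr17:23677400-23677699 (−) for Tnfrsf12a. Capitals mark matches, on either strand, to TTTCNNTTT in Tnfsf10 and to GGGCGG in Tnfrsf12a.
Tnfsf10: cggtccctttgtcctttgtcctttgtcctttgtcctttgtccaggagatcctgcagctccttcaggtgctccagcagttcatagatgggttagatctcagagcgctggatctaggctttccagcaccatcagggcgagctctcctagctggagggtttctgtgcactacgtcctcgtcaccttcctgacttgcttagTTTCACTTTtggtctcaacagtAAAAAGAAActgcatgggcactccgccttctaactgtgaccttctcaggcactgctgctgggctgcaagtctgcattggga
Tnfsf15: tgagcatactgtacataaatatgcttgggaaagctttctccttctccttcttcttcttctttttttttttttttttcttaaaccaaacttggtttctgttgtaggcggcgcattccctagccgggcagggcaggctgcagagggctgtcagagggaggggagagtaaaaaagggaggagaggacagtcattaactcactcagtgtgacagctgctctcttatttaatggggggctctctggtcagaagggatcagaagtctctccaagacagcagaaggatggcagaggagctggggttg
Tnfrsf12a: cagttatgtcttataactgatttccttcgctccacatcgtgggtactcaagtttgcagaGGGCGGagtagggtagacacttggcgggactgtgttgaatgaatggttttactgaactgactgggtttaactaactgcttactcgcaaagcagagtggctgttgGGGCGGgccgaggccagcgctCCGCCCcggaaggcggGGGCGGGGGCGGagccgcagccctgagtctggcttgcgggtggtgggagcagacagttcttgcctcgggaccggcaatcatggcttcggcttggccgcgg

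The window of Tnfrsf12a held 5 matches to GGGCGG, a GC box, and was 59.7% G and C. That of Tnfsf10 held 2 matches to TTTCNNTTT, letters also found in interferon response elements, and was 52.3% G and C. That of Tnfsf15 (48% G and C) held no match to any of the 5 motifs searched on both strands, which were these 2, the TATA box letters TATAAA, the NF-kappaB consensus, and the letters TGANTCA of AP-1 sites. All windows together were 53.8% G and C. GGGCGG was found in 47.4% of the 38 member windows and 35.7% of all 32851 windows. TTTCNNTTT was found in 18.4% and 10.6%. The other shares were 18.4% and 7.81% for TGANTCA, 15.8% and 13.6% for TATAAA, and 10.5% and 8.46% for the NF-kappaB consensus. Some members had several windows. The 7 member windows with TGANTCA came from 6 members, since overlapping windows of Tnfsf13b were counted separately. A match is a run of letters and not a known binding site.

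**Figure D1:**
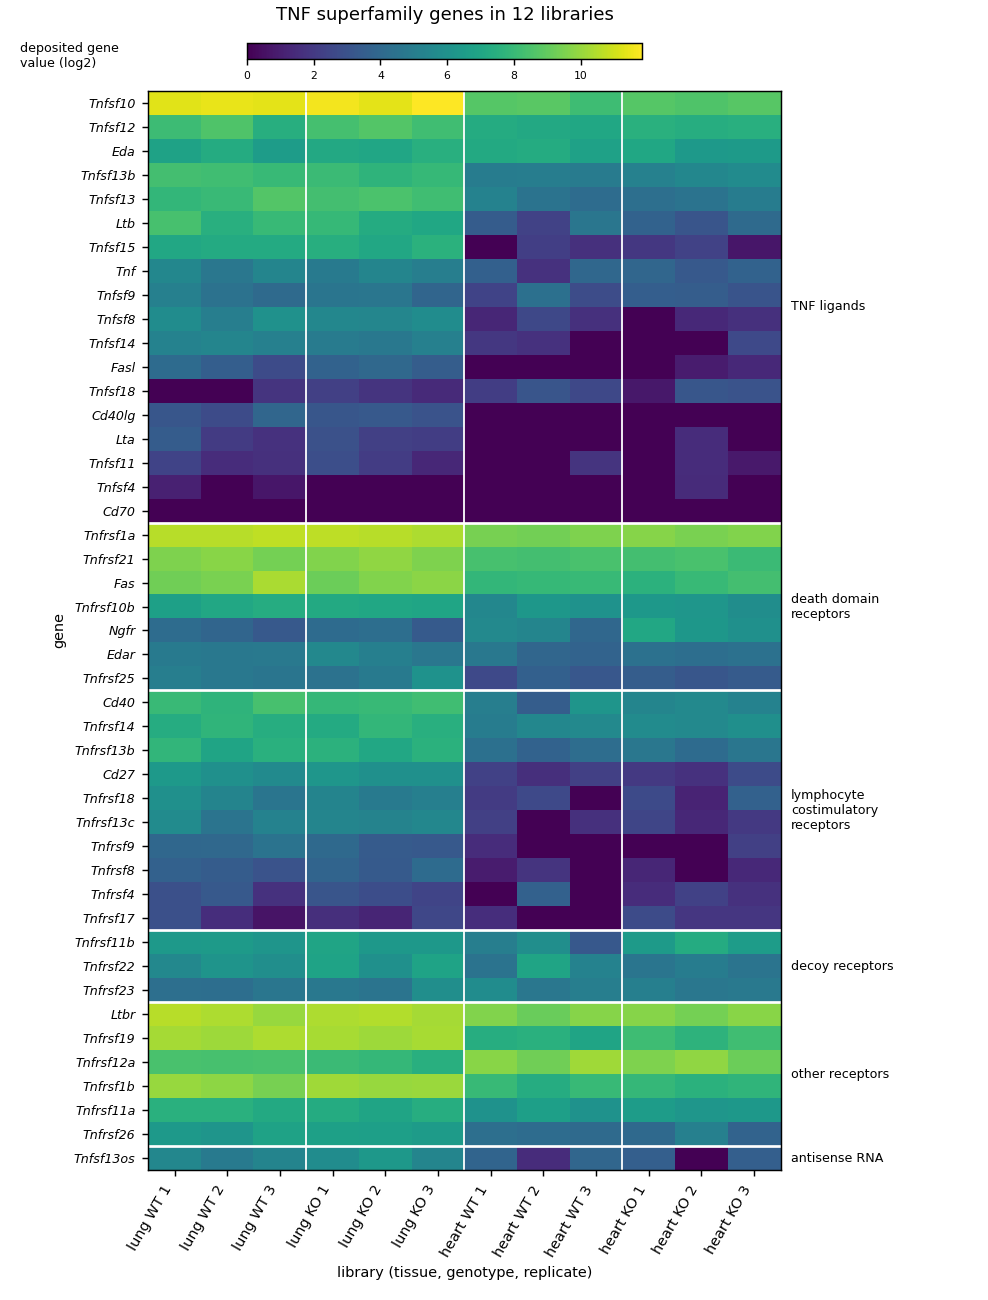
Deposited log2 value of the 45 genes (rows, grouped by role and ordered by mean) in the 12 libraries (columns, with lines between groups of 3 mice). Lung libraries are brighter than heart libraries in most rows, and Cd70 is at 0 throughout. Tnfrsf12a and Ngfr are the reverse, as are on average the low Tnfsf18 and, by little, Tnfrsf23.

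Levels of different genes were compared as estimated counts per kilobase of transcript, within a tissue. In lung the ligand RNA was led by Tnfsf10, which encodes the apoptosis-inducing ligand TRAIL. Its level per kilobase was 584 ± 87.7 (SD, n = 6 libraries), which was 43.2% of the sum over the 18 ligands. Tnfsf13 (APRIL, a B cell and plasma cell factor) followed at 190 ± 39.4 and Tnfsf12 (TWEAK) at 187 ± 50.1, a pair whose difference was within their spread. Tnf itself was the eighth ligand, at 21.5 ± 4.71. In heart Tnfsf12 was first, at 96.3 ± 12.5 or 37.4% of the ligand sum. Tnfsf10 was second there at 79.9 ± 12.2, and the intervals of 1 SD around the pair overlapped. Within libraries Tnfsf12 was the higher of the pair in all hearts but WT replicate 2 (85.2 against 90.8). The third was Eda, the ligand of skin appendage development, at 24.3 ± 6.16.

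Among receptors, lung was led by Tnfrsf1a at 712 ± 53.4 per kilobase, Ltbr (the lymphotoxin beta receptor) at 622 ± 77.9 and Fas at 576 ± 192. These 3 made 53.7% of the receptor sum, and the intervals of 1 SD around neighbours in this order overlapped. Compared within libraries, Tnfrsf1a lay above Ltbr in every lung library. Fas lay above both in lung WT replicate 3 and lung KO replicate 3, and below both in the others. Heart had one receptor well above the others. Tnfrsf12a, which encodes Fn14, the receptor of TWEAK, stood at 810 ± 206 or 39.4% of the receptor sum, against 360 ± 51.8 for Ltbr and 340 ± 31.9 for Tnfrsf1a. In lung Tnfrsf12a was at 340 ± 3.73 in WT and 226 ± 46.7 in KO (SD, n = 3). The sum over all 26 receptors was 3559 ± 149 in lung and 2058 ± 233 in heart, and the sum over the ligands was 1351 ± 64.3 and 257 ± 23.8. In heart 9 ligands averaged under 1 estimated count per kilobase, against 3 in lung.

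**Figure D2:**
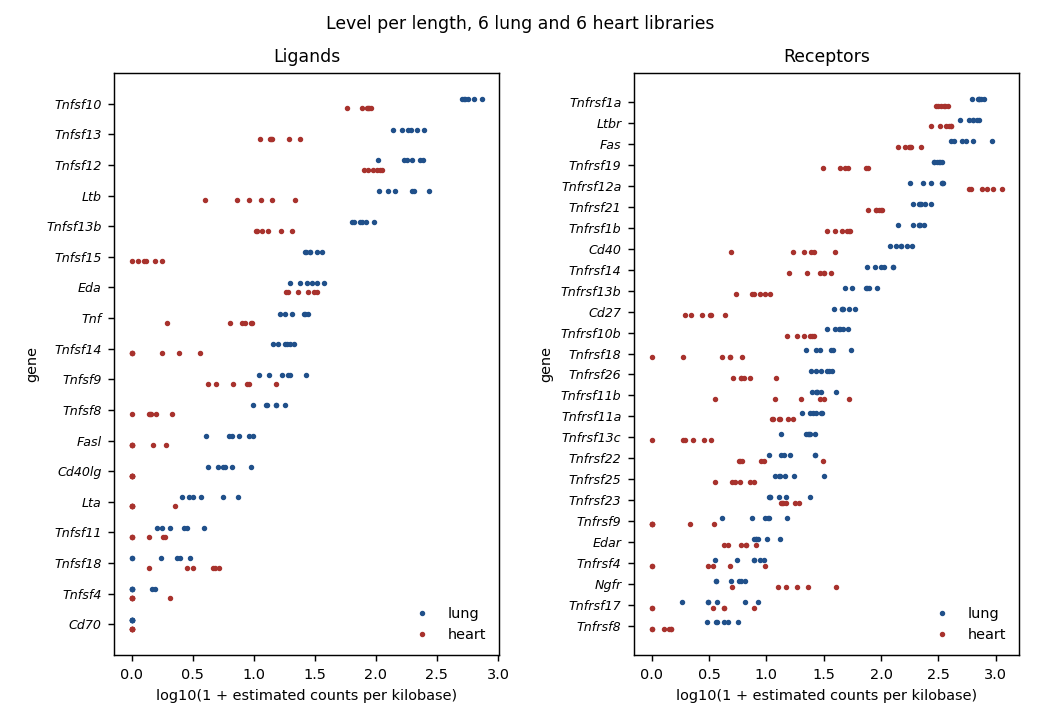
Level per length of each ligand (left) and receptor (right) as log10(1 + estimated counts per kilobase), one point per library, lung in blue and heart in red. Tnfsf10 leads the lung ligands and Tnfrsf12a the heart receptors, and the axis is logarithmic.

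Known ligand and receptor partners were set side by side on the same per-kilobase scale. The TWEAK receptor exceeded its ligand in 6 of 6 heart libraries (810 against 96.3). In lung it did so in 3 of 3 WT libraries (340 against 168) and in 1 of 3 KO libraries (226 ± 46.7 against 206 ± 34.2). TRAIL RNA exceeded its death receptor Tnfrsf10b in all libraries of both tissues (584 against 42.2 in lung and 79.9 against 20.6 in heart). Tnfrsf1a exceeded Tnf in all libraries (712 against 21.5 in lung and 340 against 6.32 in heart), as Fas did Fasl (576 against 6.25 and 175 against 0.228). Tnfsf13 exceeded Tnfrsf13b, which encodes the B cell receptor TACI, in 6 of 6 lung libraries (190 against 69.4). Tnfsf13b (BAFF, the B cell survival factor) was close to Tnfrsf13b in lung, 75.6 ± 11.9 and 69.4 ± 15.6, and was the higher of the pair in 5 of 6 libraries.

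The lung and heart libraries were compared in 1 model of the 4 groups. A member was called at an adjusted p under 0.05 over all genes, a fold of at least 1.5 and a group mean of at least 6. Of 37 members tested, 20 were called higher in lung and 2 higher in heart, Tnfrsf12a and Ngfr. Over all 17666 genes the shares called were 30.1% higher in lung and 21.2% higher in heart. By the adjusted p alone 32 members were higher in lung and 2 higher in heart (46.4% and 30.4% of all genes). The median log2 fold change, lung minus heart, was 2.16 over the members and 0.31 over all genes. Of the 37 members, 10 reached the filter through the lung libraries and not within the heart, so this median and these counts carry that selection. With the filter asked of all 12 libraries, 21 members were tested and 18 were called, where 59.2% of all genes were. The values of 28 members did not overlap in the direction of lung (34.8% of all genes) and those of 1 in the direction of heart (22.6%). Centring each library on its median lowered all lung to heart differences by 0.22, after which 18 members were called higher in lung and 2 higher in heart.

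**Figure D3:**
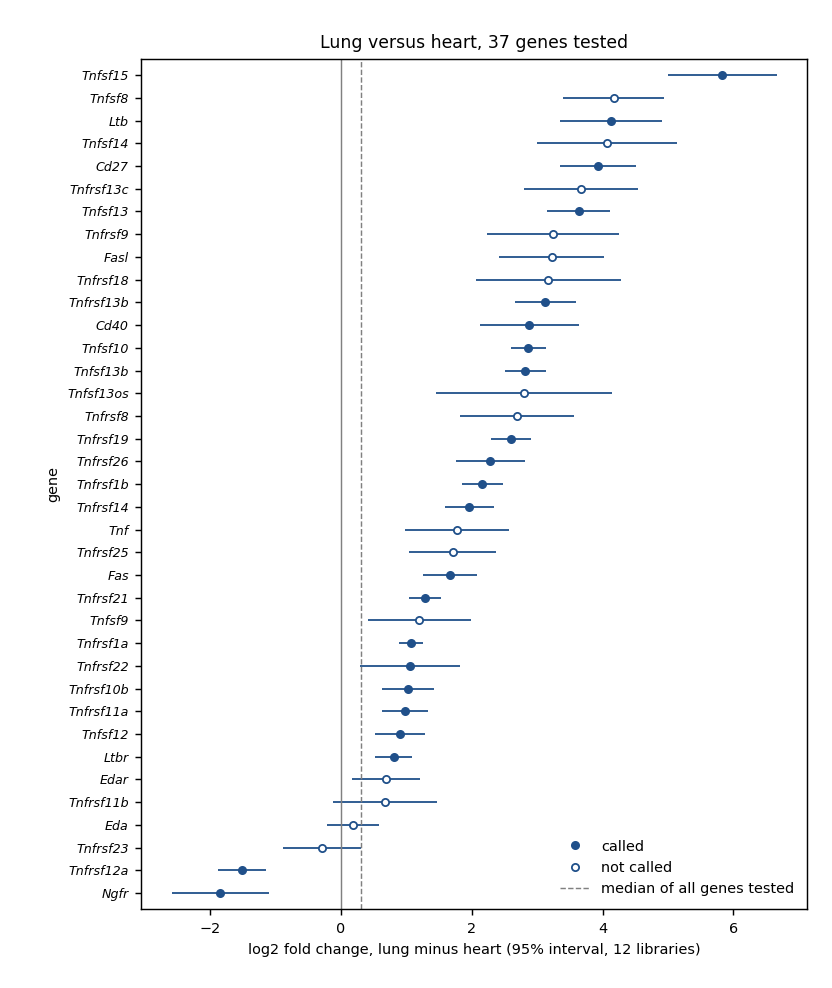
Log2 fold change, lung minus heart, of the 37 genes tested, with 95% intervals from limma over 12 libraries. Filled points passed the adjusted p, the fold of 1.5 and the group mean of 6, and the dashed line is the median of all 17666 genes, 0.31. Most points lie to the right of it. Tnfrsf12a, Ngfr and Tnfrsf23 lie to the left of 0, and the interval of Tnfrsf23 includes 0.

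Of the 18 ligands, 12 were tested and 6 were called, all higher in lung (30.1% of all genes). Fasl, Tnfsf8, Tnfsf14 and Tnfsf15 reached the filter only through lung, so their direction was fixed by it. Tnfsf15 (TL1A, a T cell costimulator made by endothelial and myeloid cells; chromosome 4, 63642840 to 63663442, minus strand, GRCm39) had the largest difference. Its lowest, median and highest values were 7.12, 7.26 and 7.59 in lung and 0, 1.78 and 2.36 in heart, so that lung stood far above heart in each library. The log2 fold change was 5.83 (SE 0.38, adjusted p = 1.76e-08), with heart values at the level of a few counts, and the gene reached the filter through lung only. Ltb, which encodes lymphotoxin beta of lymphoid organs, had 7.04, 7.72 and 8.4 in lung and 2.34, 3.58 and 4.65 in heart. Its log2 fold change was 4.13 (SE 0.36).

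The B cell ligands Tnfsf13 and Tnfsf13b were both higher in lung. Tnfsf13 had 7.83, 8.27 and 8.68 in lung and 4.21, 4.5 and 5.26 in heart, a log2 fold change of 3.64 (SE 0.22). Tnfsf13b had 7.73, 8.03 and 8.33 in lung and 4.95, 5.12 and 5.72 in heart, a log2 fold change of 2.82 (SE 0.15). Tnfsf13 lies 465 bases from Tnfsf12 on the minus strand of chromosome 11, and a readthrough gene, Tnfsfm13, shares 989 bases with Tnfsf13 and 980 with Tnfsf12 at 99.7% identity, so the split of reads among the 3 is uncertain.

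Tnfsf10 (chromosome 3, 27371033 to 27396576, plus strand) had values of 11.30, 11.42 and 11.85 in lung and 8.17, 8.72 and 8.83 in heart. Every lung library lay over 2 units above every heart library, and the log2 fold change was 2.87 (SE 0.13, adjusted p = 3.41e-10). Tnf had lower values, 4.72, 5.22 and 5.48 in lung and 1.71, 3.67 and 3.96 in heart. Its tissues did not overlap, with a log2 fold change of 1.78 (SE 0.37, adjusted p = 0.000694), but its highest group mean was 5.19, under the limit of 6, so it was not called. The sixth called ligand, Tnfsf12, was higher in lung by less (0.90, SE 0.18) and its lung and heart libraries overlapped. Eda did not pass the test (0.19, 95% interval −0.21 to 0.59).

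Of the 26 receptors, 24 were tested. Among the 10 lymphocyte costimulatory receptors, 8 were tested and 4 were called, all higher in lung (30.1% of all genes). Cd27, Tnfrsf13c, Tnfrsf18, Tnfrsf8 and Tnfrsf9 reached the filter only through lung, so their direction was fixed by it. The 3 that also reached it within heart, Cd40, Tnfrsf13b and Tnfrsf14, were called. Cd27, a T cell and memory B cell receptor, had 5.65, 5.94 and 6.41 in lung and 1.58, 2.10 and 2.69 in heart. Its log2 fold change was 3.94 (SE 0.27), and its largest group mean, 6.03, was just above the limit. Tnfrsf13b had 6.94, 7.54 and 7.82 in lung and 3.72, 4.32 and 4.68 in heart (3.13, SE 0.22). Cd40, the receptor of B cells and antigen-presenting cells, had 7.72, 8.02 and 8.4 in lung and 3.50, 5.32 and 6.17 in heart (2.88, SE 0.35). Its heart values ranged widely, with the lowest in WT replicate 2 and the highest in WT replicate 3, and none reached the lung. The fourth called was Tnfrsf14, the receptor of LIGHT (1.97, SE 0.17).

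Among the 7 death domain receptors 4 were called higher in lung and Ngfr higher in heart (30.1% and 21.2% of all genes). Tnfrsf25, which was not called, reached the filter only through lung. Tnfrsf1a had 10.41, 10.60 and 10.73 in lung and 9.34, 9.53 and 9.70 in heart, a narrow spread in both tissues, and a log2 fold change of 1.07 (SE 0.09). Fas, Tnfrsf21 and Tnfrsf10b differed by 1.67, 1.29 and 1.03. Ngfr, the low-affinity receptor for nerve growth factor, had 3.31, 3.99 and 4.29 in lung and 3.96, 5.76 and 7.10 in heart. The log2 fold change was −1.85 (SE 0.34, adjusted p = 0.00028), and the lowest heart library, WT replicate 3, fell within the lung values. In WT libraries alone it was −1.19 with an adjusted p of 0.0732.

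The 6 other receptors were all called (30.1% of all genes were called higher in lung and 21.2% higher in heart). Tnfrsf12a (chromosome 17, 23894416 to 23896468, minus strand) had 7.49, 8.25 and 8.44 in lung and 9.19, 9.65 and 10.15 in heart. All heart libraries lay above all lung libraries, with a log2 fold change of −1.51 (SE 0.17, adjusted p = 2.78e-06). An 815-base stretch of it is also covered by Hcfc1r1 on the other strand, and whether the quantification used strand is not given in the sources used here. The 5 others were higher in lung, from 0.81 for Ltbr to 2.60 for Tnfrsf19. An 846-base stretch of Tnfrsf19 is likewise covered by Gm41168 on the other strand. Of the 3 decoy receptors only Tnfrsf22 was called, by 1.06 (SE 0.35), with overlapping libraries. A 766-base stretch of Tnfrsf22 transcripts is 97.1% to 97.9% identical to transcripts of 18 other genes, and in WT libraries alone the difference was 0.28 with an adjusted p of 0.694.

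Transcript values were tested in the same way. Of 56 member transcripts tested, from 37 genes, 22 were called higher in lung and 2 higher in heart (18.4% and 15.1% of all 43716 transcripts). The 2 were the main protein-coding transcripts of Tnfrsf12a and Ngfr. Tnfrsf19 had 2 called transcripts, with differences of 3.26 (SE 0.45) and 2.41 (SE 0.27), as did Cd40, with 3.91 (SE 0.73) and 2.36 (SE 0.29). For Eda, estimates of single transcripts switched between 0 and about 6 or 7 among libraries of 1 group, so its transcript tests, none of which was called, compare unstable estimates.

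Lymphocyte and macrophage markers moved with tissue in the same direction as most members. The summed level of 4 B cell markers was 9.5 to 10.67 in lung and 4.99 to 6.07 in heart, and that of 5 T cell markers 8.8 to 9.37 and 4.49 to 5.48. That of 6 macrophage markers was 14.38 to 15.06 and 11.51 to 11.86. All 6 macrophage markers were higher in lung, but unevenly, with log2 fold changes from 0.76 to 10.33 and a median of 1.63. The 5 neutrophil markers summed to 10.35 to 11.48 in lung and 3.70 to 5.81 in heart, with Ly6g at 0 in all heart libraries. The 5 endothelial markers summed to 15.5 to 15.71 and 14 to 14.16, and the 5 fibroblast markers to 14.02 to 14.44 and 14.45 to 14.92. Single fibroblast markers went in opposite directions, with log2 fold changes from −3.15 to 1.84. Of them 1 was called higher in lung and 2 higher in heart. The part of these cells in the differences was not tested, and in whole tissue fewer cells of a type and less RNA per cell cannot be told apart.

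Adam19 KO and WT lungs were compared to see whether loss of one ADAM protease came with altered RNA of ligands and receptors that such proteases cut. By limma none of the 37 members tested was called, where 11 of 16551 genes were (0.0665%). One member had an unadjusted p under 0.05, Tnfrsf12a, where 5.93% of all genes did. The member changes ran from −0.61 to 0.72 with a median of 0.05 (0.01 over all genes). Of the 10 members on the list known to be shed by ADAM proteases, 8 were tested in lung, none was called and none had an unadjusted p under 0.05. The median change of these 8 in lung was 0.07. In heart 6 of the 10 were tested and none was called, Ngfr had an unadjusted p under 0.05, and the median change was 0.43 (0.03 over all genes). Of these 6, Tnf and Cd40 had the other sign without heart WT replicate 2 (−0.15 and −0.21), so this median is not stable.

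Tnfrsf12a values were 8.44, 8.41 and 8.43 in WT lung and 8.09, 7.87 and 7.49 in KO lung. The WT libraries were tightly grouped and every KO library lay below them. The log2 fold change was −0.61 (SE 0.20, 95% interval −1.06 to −0.16) with a limma adjusted p of 0.806, so the difference did not pass the test. The 6 heart muscle markers summed to 13.85 to 14.62 in WT and 13.33 to 13.87 in KO lung, and their part in the Tnfrsf12a difference was not tested.

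The next smallest p values belonged to Tnfrsf22, Tnfsf13os, Ltb and Tnfrsf1b. Tnfrsf22 values were 5.51, 6.12 and 5.88 in WT and 6.86, 5.95 and 6.85 in KO lung, with a difference of 0.72 (SE 0.32). Its main protein-coding transcript differed by 0.14 (SE 0.26), and the smallest gene difference under an alternative was 0.21. Tnfsf13os was 5.5, 4.85 and 5.35 in WT and 5.76, 6.34 and 5.41 in KO (0.60, SE 0.33). Both pairs of groups overlapped. Ltb was 8.4, 7.49 and 7.99 in WT and 7.95, 7.28 and 7.04 in KO (−0.53, SE 0.31). Tnfrsf1b, which encodes TNFR2, was 10.01, 9.86 and 9.40 in WT and 10.16, 10.03 and 10.05 in KO, without overlap and with a difference of 0.32 (SE 0.19). The adjusted p of these 4 was 0.829 or more.

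Tnf was 5.48, 4.72 and 5.38 in WT lung and 4.86, 5.39 and 5.06 in KO lung. The groups overlapped, and the difference was −0.09 with a 95% interval of −0.85 to 0.66, so that a change of either sign within these bounds could not be seen. For the more abundant Tnfrsf1a the difference was −0.08 (95% interval −0.41 to 0.25) and for Tnfsf10 0.23 (−0.14 to 0.60). In all, libraries of KO and WT lung did not overlap for 1 member higher in KO (Tnfrsf1b) and 2 lower (Tnfrsf12a and Tnfsf14), against 6.41% and 6.4% of all genes.

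**Figure D4:**
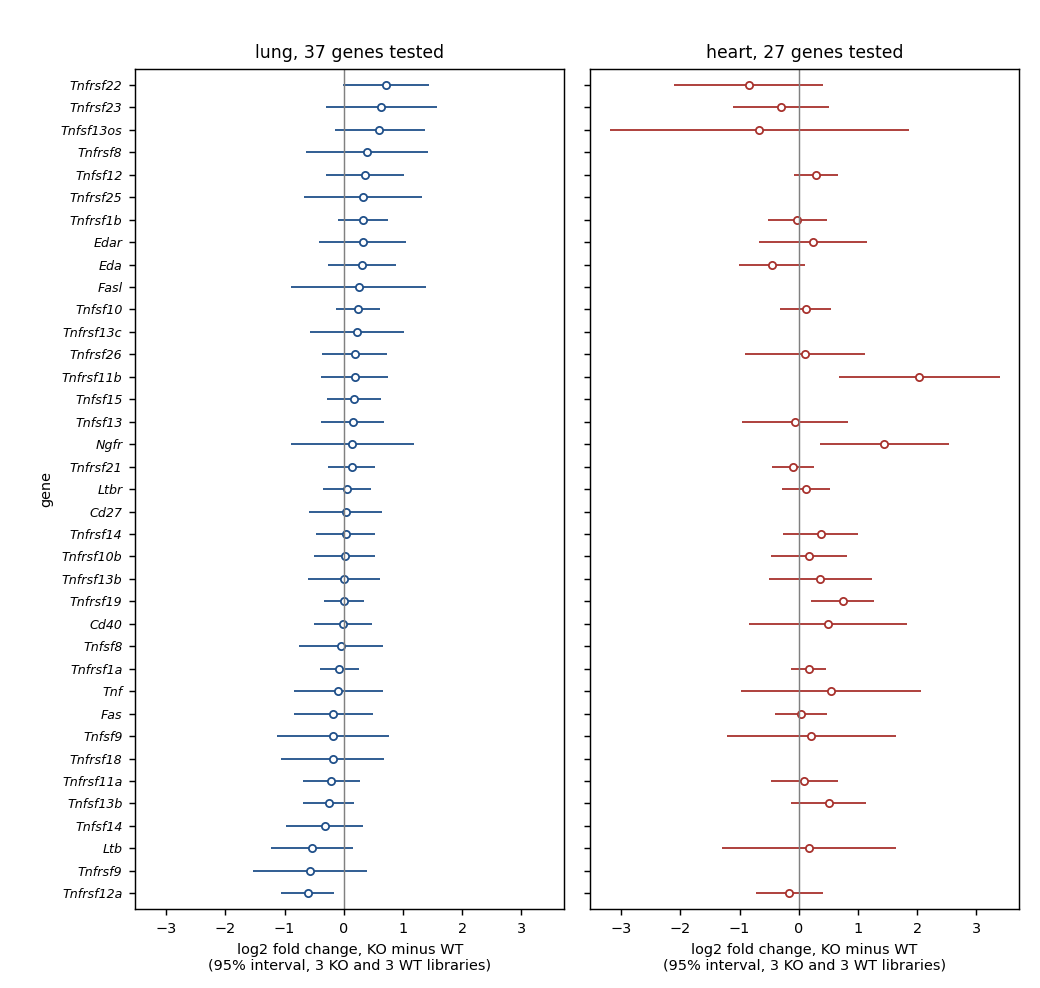
Log2 fold change, KO minus WT, of the members tested in lung (left, 37) and heart (right, 27), with 95% intervals from limma over 3 KO and 3 WT libraries. Most intervals include 0, and those of Tnfrsf12a in lung and of Tnfrsf11b, Ngfr and Tnfrsf19 in heart do not. No adjusted p was under 0.05.

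In heart 27 members were tested and none was called, where 13 of 15303 genes were (0.085%). An unadjusted p under 0.05 was found for 3 members, Tnfrsf11b, Tnfrsf19 and Ngfr, all higher in KO, and for 7.46% of all genes (4.76% higher in KO). The member changes ran from −0.85 to 2.04, with a median of 0.16 (0.03 over all genes). Libraries did not overlap for 5 members higher in KO (7.82% of all genes), which were these 3, Tnfsf12 and Tnfsf13b, and for none lower (5.23%).

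Tnfrsf11b encodes osteoprotegerin, the soluble decoy receptor of RANKL. Its values were 5.06, 5.87 and 3.24 in WT heart and 6.44, 7.30 and 6.54 in KO heart. The KO values were all above the WT values, but the WT libraries spread over more than 2 units. The log2 fold change was 2.04 (SE 0.60, 95% interval 0.68 to 3.39) and did not pass the test (limma adjusted p = 0.531). In lung the same gene was 6.33 ± 0.14 in WT and 6.51 ± 0.34 in KO (SD, n = 3).

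Tnfrsf19 (TROY, a receptor of epithelial and neural progenitors) was 7.38, 7.54 and 6.90 in WT and 8.17, 7.65 and 8.23 in KO heart. The difference was 0.74 (SE 0.23, adjusted p = 0.578), and in lung it was 0.00 (95% interval −0.33 to 0.34). Ngfr was 5.59, 5.39 and 3.96 in WT and 7.10, 6.25 and 5.93 in KO heart, a difference of 1.45 (SE 0.48, adjusted p = 0.6). For all 3 genes the lowest value was that of heart WT replicate 3, one of the libraries that were shallow among the hearts. Without heart WT replicate 3 the differences were 1.30, 0.56 and 0.94 for Tnfrsf11b, Tnfrsf19 and Ngfr, and without both shallow heart libraries 1.70, 0.63 and 0.84. The last 3 values rest on 1 WT heart, which is assumed to vary as the KO hearts do.

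Eda was 7.19, 7.29 and 6.78 in WT and 7.04, 6.41 and 6.46 in KO heart (−0.45, SE 0.25). Tnfsf13b was 4.95, 5.01 and 4.95 in WT and 5.22, 5.5 and 5.72 in KO (0.51, SE 0.28). Neither passed, with an adjusted p of 0.734 for both. Tnf was 3.63, 1.71 and 3.96 in WT and 3.93, 3.29 and 3.71 in KO, with a difference of 0.54 (95% interval −0.97 to 2.06) that was −0.15 without WT replicate 2. Tnfrsf12a, Tnfrsf1a and Tnfsf10 differed by −0.16, 0.16 and 0.12. Fibroblast markers summed to 14.45 to 14.78 in WT and 14.75 to 14.92 in KO heart, with 3 of the 5 higher and 2 lower in KO. Adipocyte markers summed to 8.62 to 11.98 and 9.41 to 12.09. The part of these cells was not tested.

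**Figure D5:**
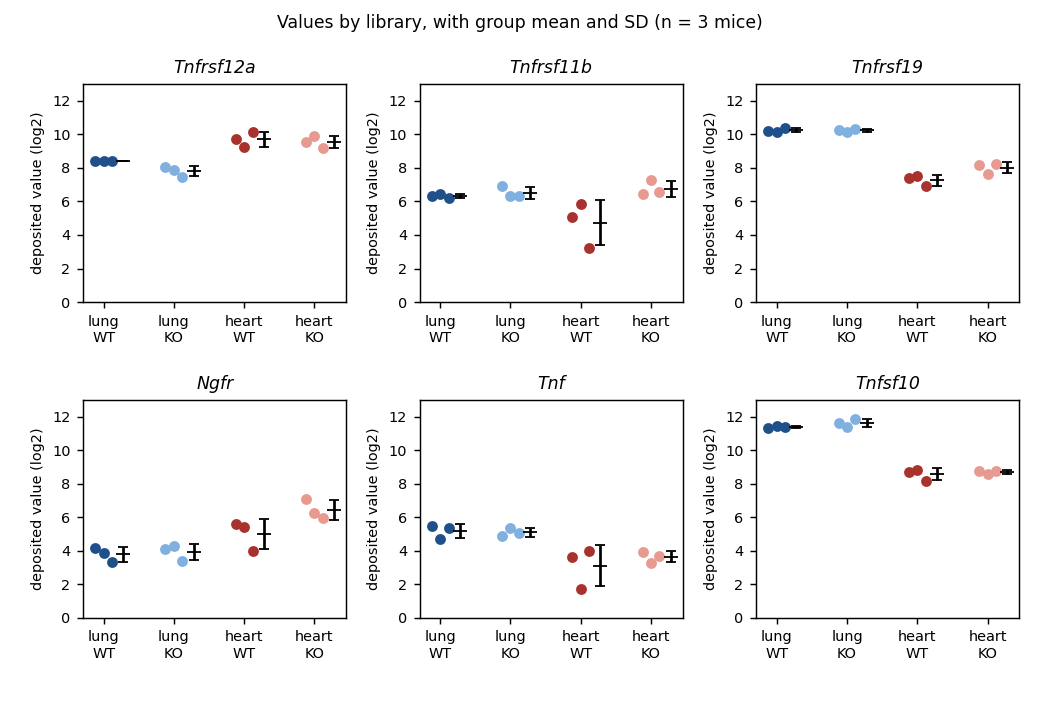
Deposited log2 values of 6 members in each of the 12 libraries (points), with the group mean and SD (bars, n = 3). Tnfrsf12a is lower in the 3 KO lungs and high in all hearts, Tnfrsf11b, Tnfrsf19 and Ngfr are higher in the 3 KO hearts than in WT hearts, and Tnf and Tnfsf10 differ by tissue and overlap between genotypes.

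The genotype effects of lung and heart were compared as an interaction. None of the 37 members was called, where 1 of 17666 genes was (0.00566%), and 4 members had an unadjusted p under 0.05 (7.88% of all genes). These 4 were Tnfrsf11b, Tnfrsf19, Tnfsf13b and Tnfrsf22, and their adjusted p was 0.599 or more. The estimate for Tnfrsf11b was −1.86, lung minus heart. A difference between the tissues in the genotype effect was therefore not shown for any member. Member transcripts gave no call by genotype either, of 52 tested in lung and 31 in heart (0.0841% and 0.0626% of all transcripts were called).

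Some members were too low to test. Cd70, the ligand of CD27, was listed at 0 in all 12 libraries. Cd40lg, the ligand of CD40, was listed at 0 in the 6 heart libraries and lay between 2.72 and 3.90 in lung. Lta, Tnfsf4, Tnfsf11, Tnfsf18, Tnfrsf4 and Tnfrsf17 also did not reach the filter in any comparison, and these 8 members have no test. A further 10 members were tested in lung and between the tissues but were too low for a genotype test in heart.

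Several members are close neighbours in the genome (GRCm39). Ltb, Tnf and Lta follow each other on chromosome 17 with gaps of 3060 and 1157 bases, and their lung means were 7.69, 5.15 and 2.42. Cd27, Ltbr and Tnfrsf1a lie on chromosome 6 with gaps of 69545 and 34679 bases, and the tissue differences were 3.94, 0.81 and 1.07. Tnfrsf26, Tnfrsf22 and Tnfrsf23 lie within one stretch of chromosome 7, with tissue differences of 2.29, 1.06 and −0.28, the last of which did not pass (adjusted p = 0.363).

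Genes that act before and after the receptors were taken from lists chosen with earlier results of these data known. Of 11 sheddases and their regulators, only Adam19 was called by genotype, lower in KO in both tissues. An unadjusted p under 0.05 was found for 2 in lung, Adam19 and Adam8, and for 3 in heart, these and Adam12 (5.93% and 7.46% of all genes). Adam8, Adam12 and Adam17 were chosen here after their values were seen. Adam8, a protease of leukocytes, was 7.45, 7.58 and 7.77 in WT lung and 8.21, 8.40 and 8.16 in KO lung. In heart it was 3.23, 3.27 and 2.79 in WT and 4.60, 4.70 and 3.65 in KO. The KO libraries lay above the WT libraries in both tissues, by 0.66 (SE 0.18, adjusted p = 0.806) and 1.22 (SE 0.48, adjusted p = 0.641). Neutrophil markers summed to 10.35 to 10.63 in WT and 10.61 to 11.48 in KO lung, and to 3.70 to 5.30 and 5.01 to 5.81 in heart, and their part was not tested. Adam12 was higher in the 3 KO hearts, without overlap (7.82% of all genes), by 1.08 (SE 0.37, adjusted p = 0.609). Adam17 was 10.86, 10.84 and 11.34 in WT lung and 10.77, 10.55 and 10.67 in KO lung. It was lower in KO without overlap (6.4% of all genes), by a difference that did not pass (−0.35, 95% interval −0.75 to 0.05). In heart its difference was −0.16 (−0.45 to 0.14). Between tissues 5 of the 11 were called higher in lung and 2 higher in heart (30.1% and 21.2% of all genes). Adam8 was higher in lung by 4.22, Rhbdf2, the partner that carries ADAM17 to the surface, by 1.09, and Timp3, an inhibitor of ADAM17, by 1.07. Adam19 and the convertase gene Furin were higher in heart (−1.52 and −0.72). The Adam19 value pools the genotypes, and in WT its mean was 9.22 in lung and 9.56 in heart, with overlapping libraries.

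None of 30 receptor adaptors and kinases was called by genotype by limma in either tissue, and an unadjusted p under 0.05 was found for 0 in lung and 2 in heart (5.93% and 7.46% of all genes). Between tissues 15 of the 30 were called higher in lung and 3 higher in heart (30.1% and 21.2% of all genes). Traf1 (4.90), Casp8 (2.36) and the NF-kB inhibitor Tnfaip3 (2.17) had the largest lung excess. Eda2r (−0.93), itself a receptor of an Eda isoform, Fadd (−0.84) and Map3k7 (−0.63) were higher in heart. Of 32 targets of TNF signalling through NF-kB, 25 were tested in lung and 27 in heart. None was called by genotype by limma, and 1 in lung and 4 in heart had an unadjusted p under 0.05 (5.93% and 7.46% of all genes). Their median change was −0.08 in KO lung and 0.07 in KO heart. Between tissues 28 were tested, 16 were called higher in lung and 3 higher in heart (30.1% and 21.2% of all genes). The adhesion molecule gene Icam1 (4.60), Il1b (4.06) and Plaur (3.51) had the largest lung excess, and those higher in heart included Sod2 (−3.55) and Csf1 (−0.80). The targets and adaptors share Nfkbia, Tnfaip3 and Birc3.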

How the data were processed

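RNA from whole lung and whole heart was sequenced on strand-specific libraries, 12 in all, 3 per tissue and genotype. In the authors' pipeline reads were quantified with Salmon against mm39 transcripts. The authors deposited both tables on a log2 scale. Transcript values are log2(1 + estimated count), and gene values carry a further adjustment for each library, whose method is not given in the sources used here. After this adjustment gene values still departed from the sum of their transcripts by amounts that differed by gene. The largest gap in a library was 2.23 for Tnfrsf18, 1.25 for Tnfrsf22 and 0.81 for Cd40, but 0.004 for Tnfsf10 and 0.01 for Tnfrsf12a. Gene differences and levels per length, which are built from transcripts, therefore rest on different quantities. Because the deposited values are log2, limma was used (3.58.1 in R 4.3.3, lmFit and eBayes with a trend). Genes at 3.46 or above, which is log2(1 + 10), in at least 3 libraries of a fit were tested. A gene was called at a Benjamini-Hochberg adjusted p under 0.05 over all genes tested, a 1.5-fold or larger change and 1 group mean at 6 or above, and the interaction at the adjusted p alone. Fold changes are on the scale of log2(1 + count), which understates changes of low genes. A single-gene exact permutation test of 3 against 3 cannot go below p = 0.10.

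The summed estimated counts were 17674788 to 35862932 per library, so low members rest on few reads. Level per length is the estimated count, scaled by the library adjustment, per kilobase of transcript, with lengths from GENCODE vM39. The quantification used an earlier GENCODE release. All 148 member transcripts were matched to a length by identifier, of which 85 had the same version, and the others took the length of another version. Sequence shared between genes was searched with blastn 2.17.0 (at least 95% identity over at least 500 bases). The fits were tested on simulated data.

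Lung and heart with the same number come from 1 mouse, by the identifier in the labels. The correlations of their deviations over 17666 genes were 0.049, 0.136 and −0.024 in the WT mice, and in the KO mice 0.020, −0.068 and −0.036. Members, lists and tests were chosen with earlier results of these data known. The genes named are Adam19, Tnfsf10, Tnfrsf1a, Tnfrsf12a and Tnf, the 5 smallest unadjusted p values of each genotype comparison, up to 8 called members per direction with the largest tissue difference and no overlap, Cd70, and in each further list the called genes (up to 3 per direction for tissue), of which 1 is not reported here. The other members are given by counts and ranges, or named after their values were seen. The alternatives are in the closing section.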

Additional observations from a re-analysis of the deposited data

How the results depend on the processing

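The count of members called between lung and heart was 34 when the adjusted p was used alone, without the fold and group mean limits. Leaving out each library gave 21 to 23 members between the tissues, and 0 in each genotype comparison and in the interaction. With mouse as a replicate block, 22 members were called between the tissues, the same 22 genes, and 0 in the interaction. All other alternatives, limma without a trend, library centring, summed transcripts, limma-voom on recovered counts, no filter, a filter in every library, a single model, and WT or KO libraries alone, gave 18 to 22 between the tissues and 0 elsewhere. Leaving out both shallow heart libraries, chosen after seeing the data, gave 22 and 0, with 1 WT heart left and the spread taken from the other groups of the fit. Among 1247 values for single genes under an alternative, 5 came past a limit and 6 fell short of one. A further 54, in 26 of 70 comparisons of single genes, had the other sign, and none of these was called on either side. Among them was Tnfrsf11b between tissues in KO alone (−0.25). In KO against WT hearts they included Tnf (−0.15) and Cd40 (−0.21) without heart WT replicate 2. Others there were Ltb (−0.40 to −0.05), Tnfsf13os without heart KO replicate 2 (0.53) and Tnfrsf22 without both shallow heart libraries (0.20). In the interaction Tnfsf15 reached 0.42, against −0.22 in the main fit. Cd27 fell below the group mean limit after centring (3.72), in WT alone and without lung KO replicate 1, and Tnfrsf22 missed the adjusted p after centring (0.84). Tnfrsf11b passed between tissues in WT alone (1.61) and without heart WT replicate 2. Tnfsf13os passed without lung KO replicate 3. With 3 mice a group, members at a few counts in heart have wide intervals. The p values rest on the spread among these libraries, drawn for each gene toward the trend over all genes. Apart from the mouse block, the tissue and interaction fits treated the 12 libraries as independent.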
